A study of Mus musculus with 7 samples.

Results

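The 10 genes described here form a set named for the liver X receptors (LXRs) and for cholesterol efflux, its export from cells. Not all of them act in export itself: Mylip acts on lipoprotein receptors, and Npc1 and Npc2 act in the lysosome. The 10 were chosen by symbol: Abca1, Abcg1, Mylip, Nr1h2, Nr1h3, Npc1, Npc2, Soat1, Arl4c and Smpdl3a. The array annotation gave a row to 7 of them, 1 row each, among 18820 named genes in all. Nr1h2, Soat1 and Arl4c are not listed there and were not analysed here. The cells were 3T3-L1, an established mouse line of fibroblast-like precursors that turn into fat-laden adipocytes under a hormone mixture of isobutylmethylxanthine, dexamethasone and insulin. Throughout differentiation the cultures received either 1 µM of an inhibitor of stearoyl-CoA desaturase (SCD), whose name the sources used here do not give, or an equal volume of its solvent DMSO. Total RNA of day 7 was hybridised to 7 arrays, 4 of DMSO and 3 of SCD inhibitor. Levels are given in log2 as made with RMA, which subtracts background, gives all arrays the same distribution and combines the probes of each transcript into 1 value.

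LXRs are nuclear receptors that are activated by oxysterols, which are oxidised forms of cholesterol, and by late intermediates of cholesterol synthesis. As a pair with a retinoid X receptor (RXR) they bind DNA and raise the transcription of genes that move cholesterol out of the cell and limit its uptake. SCD makes monounsaturated fatty acids, which are used, among other things, to esterify cholesterol. Fat cells hold a large store of cholesterol, much of it unesterified and tied to the lipid droplet. Export through ABC transporters draws on the cellular pool of cholesterol, and delivery from lysosomes adds to it.

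LXR and RXR bind best to a pair of AGGTCA hexamers in the same orientation with 4 bases between them, called a DR4 element. The promoters of Abca1, which did not pass the test below, and of Mylip, which fell, are shown because both genes are known LXR targets and gave different results here. The sequences are the 250 bases before the RefSeq start of transcription (GRCm38.p6), written 5′ to 3′ on the strand of the gene, at chr4:53159896-53160145 on the minus strand for Abca1 and at chr13:45389492-45389741 on the plus strand for Mylip. Capitals mark the loose DR4 pattern and the TATA box described next.
Abca1: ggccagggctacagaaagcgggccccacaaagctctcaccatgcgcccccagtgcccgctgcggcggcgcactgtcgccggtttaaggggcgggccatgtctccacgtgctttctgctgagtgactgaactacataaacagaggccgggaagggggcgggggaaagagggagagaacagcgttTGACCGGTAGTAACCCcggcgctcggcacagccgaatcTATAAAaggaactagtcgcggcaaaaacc
Mylip: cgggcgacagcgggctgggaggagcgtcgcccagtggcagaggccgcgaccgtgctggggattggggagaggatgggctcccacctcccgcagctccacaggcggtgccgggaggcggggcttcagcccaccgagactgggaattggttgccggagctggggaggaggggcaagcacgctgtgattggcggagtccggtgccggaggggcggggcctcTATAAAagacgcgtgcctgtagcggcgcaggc
Of the 10 genes, 7 had an entry in the RefSeq promoter table, Nr1h3 with more than 1 start, which gave 8 windows. Abcg1, Npc1 and Smpdl3a were not searched. The exact element, read on both strands, was in none of the 8 windows and in 0.0152% of all 32851 windows of the same length. A looser form, with NGGTNA for each hexamer (N is any base) and the same gap, which includes the exact one, was in the Abca1 window and in 0.621% of all windows. The Abca1 match, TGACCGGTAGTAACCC, lay 67 to 52 bases before the start, and is on the minus strand of the gene. This pattern was chosen knowing the DR4 element described for the Abca1 promoter, so the match is a description. The Mylip window held neither form. Only these 250 bases were searched, so elements elsewhere would be missed. A link between the windows and the expression results was not tested. A TATA box (TATAAA, both strands) began 29 bases before the start of Abca1 and 32 bases before that of Mylip, and was in 12.4% of all windows. The RefSeq span of the Abca1 gene reaches position 53159988, upstream of the start used here. The loose match and the TATA box of Abca1 therefore lie inside that span.

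With the inhibitor, Abcg1, Npc1 and Mylip fell, Npc2 rose, and Abca1, Nr1h3 and Smpdl3a did not pass the test. The decreases were 1.42-fold for Abcg1, 1.37-fold for Npc1 and 1.21-fold for Mylip, and the increase of Npc2 was 1.15-fold (n = 3 against 4 for each). Differences were tested with limma over all genes, and a gene was called at a Benjamini-Hochberg adjusted p under 0.05. In all, 4 of the 7 genes passed, 3 lower and 1 higher, against 8.00% of all 18820 genes (4.37% lower and 3.62% higher). In these 4 the arrays of the groups did not overlap, with 3 genes wholly below and 1 wholly above DMSO, as for 9.02% and 8.30% of all genes. The median difference of the 7 was -0.08 on the log2 scale, and that of all genes was -0.0037. Apart from Smpdl3a, the 7 lay at the 82.2 to 96.4 percentile of mean level, whereas the shares over all genes include dimmer ones. Among 163 measured genes of the other lists below, 20.9% passed. Most of these lists also had a higher mean level than all genes (6.11 in DMSO), so these shares are not matched for level. Differences below are the inhibitor mean less the DMSO mean, with a standard error (SE). Nothing in the labels says that replicates were grown separately, so p-values measure just the spread between these samples, and that spread may be technical.

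**Figure D1:**
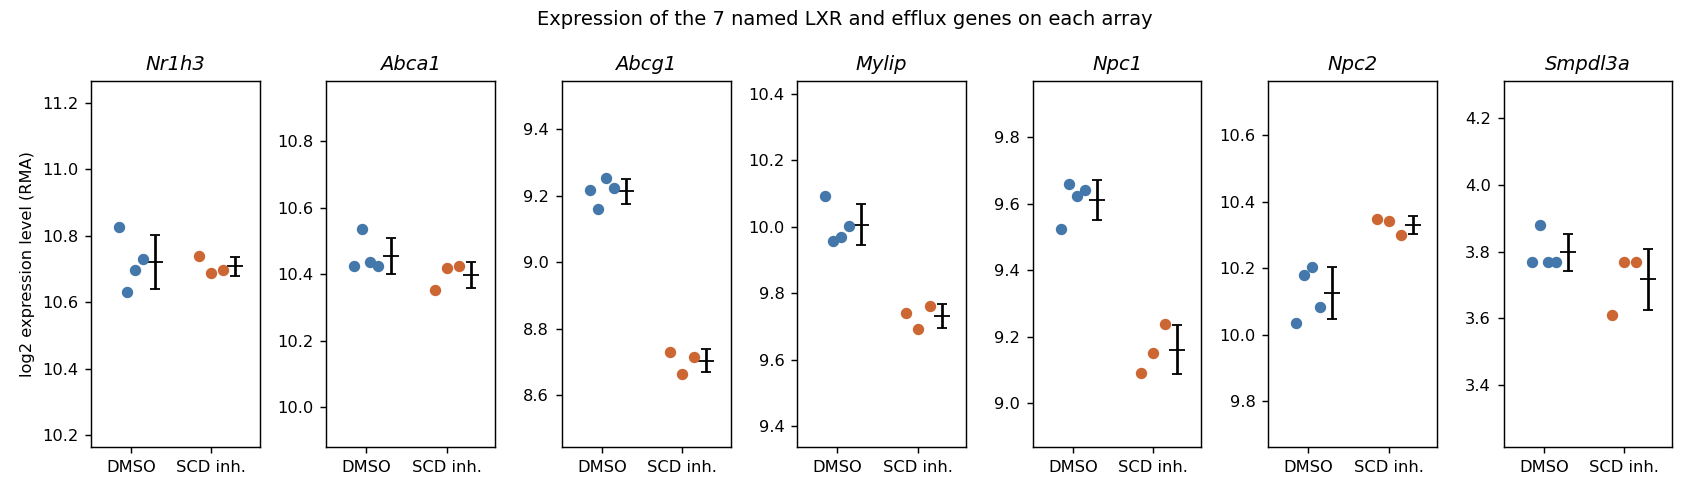
Expression level (log2, RMA) of the 7 genes on each array, with 4 DMSO arrays in blue and 3 SCD inhibitor arrays in orange. Crosses with bars are means ± SD, and every panel spans the same number of log2 units. For Abcg1, Mylip and Npc1 all inhibitor arrays lie below all DMSO arrays, for Npc2 all lie above, and for the other 3 genes the groups overlap.

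Nr1h3 encodes LXRα, the LXR form that is abundant in fat and liver and in macrophages. Its log2 level was 10.83, 10.63, 10.70 and 10.73 in DMSO and 10.74, 10.69 and 10.70 with the inhibitor. All 3 inhibitor values lay inside the range of the DMSO values. The difference was -0.013 (SE 0.046, 95% interval -0.12 to 0.097, adjusted p = 0.902 in limma). Its sign turned to 0.023 without DMSO 1, to 0.0065 without both arrays numbered 1 and to 0.00012 with the arrays centred on their medians.

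Among the genes of its partners and coregulators, 1 of 16 measured rose and 1 fell, and the median difference was -0.0068. Tbl1x, a subunit of the NCoR and SMRT corepressor complexes that silence target genes of unliganded receptors, fell from 10.85 to 10.39 (log2 -0.46, SE 0.045, adjusted p = 0.00177 in limma). Nrip1, a ligand-dependent cofactor of nuclear receptors also known as RIP140, rose by 0.25 (SE 0.043, adjusted p = 0.0157 in limma). The call of Nrip1 ended without DMSO 3 (adjusted p = 0.0501), DMSO 4 (0.0527), SCD inhibitor 1 (0.0513) or SCD inhibitor 2 (0.0626), and without both arrays numbered 1 (0.102). The count was 1 lower and 0 higher without DMSO 3, DMSO 4 or SCD inhibitor 2, and 2 of each after a further quantile normalization, with the arrays centred or with the 50% dimmest genes left out. The RXR genes did not pass: Rxra had a difference of -0.04, Rxrb one of 0.07 and Rxrg one of -0.18. For Rxrg (adjusted p = 0.0748 in limma) every inhibitor array lay below every DMSO array, as for 9.02% of all genes. In Rxra and Rxrb the groups overlapped. These 3 genes were chosen after their values were seen.

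Abca1 and Abcg1 encode membrane transporters that hand cholesterol to acceptors outside the cell, ABCA1 to lipid-poor apolipoproteins and ABCG1 to mature high-density lipoprotein. The level of Abcg1 was 9.22, 9.16, 9.25 and 9.22 in DMSO and 8.73, 8.66 and 8.72 with the inhibitor. The lowest DMSO array lay far above the highest inhibitor array, and the spread within each group was small (SD 0.039 and 0.035). Abcg1 fell by 0.51 (SE 0.029, 95% interval -0.58 to -0.44, adjusted p = 0.000172 in limma), which ranked it 215 of 18820 genes by size of decrease.

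Abca1 read 10.42, 10.54, 10.44 and 10.42 in DMSO and 10.35, 10.42 and 10.42 with the inhibitor. The groups overlapped, and the highest array was DMSO 2. The difference of -0.06 (SE 0.036, 95% interval -0.14 to 0.03) did not pass (adjusted p = 0.423 in limma).

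The difference between these transporters was also taken within each array, as the log2 value of Abcg1 minus that of Abca1. Its mean was -1.24 ± 0.090 (SD, n = 4) in the DMSO arrays and -1.70 ± 0.067 (SD, n = 3) in the inhibitor arrays. All 3 inhibitor arrays lay below all 4 DMSO arrays, so Abcg1 changed by -0.45 relative to Abca1. This separation follows from the values of Abcg1 given above, whose gap between the groups is wider than the whole range of Abca1, so it is a description with no test of its own. Levels of different probe sets on an array are not comparable, so the shift between groups is the measurement, not the sign of each mean.

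**Figure D2:**
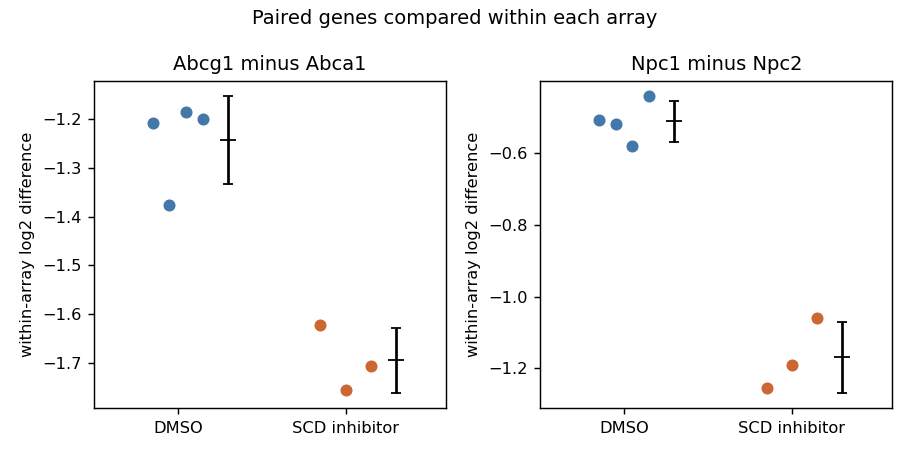
Within-array difference of log2 levels for Abcg1 minus Abca1 (left) and Npc1 minus Npc2 (right), with DMSO arrays in blue and SCD inhibitor arrays in orange, and means ± SD as crosses with bars. In both panels every inhibitor array lies below every DMSO array, with mean shifts of -0.45 and -0.66.

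In the wider ABCA and ABCG families, 22 genes were measured, of which 2 fell and 1 rose, with a median difference of -0.0070. The decreases were those of Abcg1 and of Abca2, a transporter of endosomes and lysosomes, which went from 8.10 to 7.71 (log2 -0.40, SE 0.068). Abca8a rose by 0.44 (SE 0.089). The call of Abca2 ended without DMSO 1 (adjusted p = 0.0538 in limma), DMSO 2 (0.0555) or DMSO 4 (0.0557). The call of Abca8a ended without DMSO 1 (adjusted p = 0.0901 in limma), DMSO 3 (0.0794), DMSO 4 (0.0622), SCD inhibitor 2 (0.101) or SCD inhibitor 3 (0.108). Both calls ended without both arrays numbered 1 (0.105 and 0.0873). The family count was 1 lower and 0 higher without DMSO 1 or DMSO 4. It was 2 lower and 3 higher without SCD inhibitor 1, with a further quantile normalization or with the arrays centred. Abcg5 and Abcg8, which form the sterol exporter of liver and gut, read about 4.17 and 3.75 in DMSO, in the lower part of the scale, and did not pass (differences of -0.0033 and -0.04).

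Partners of efflux and lipoprotein acceptors gave 2 decreases among 12 measured genes, Abca2 and Scarb1, and a median difference of -0.05. Scarb1, the receptor for high-density lipoprotein known as SR-BI, fell by 0.17 (SE 0.037, adjusted p = 0.0387 in limma). Its call held without DMSO 2 and ended without any other array, with adjusted p = 0.107, 0.113 and 0.105 on leaving out DMSO 1, 3 and 4 and 0.112, 0.112 and 0.102 on leaving out SCD inhibitor 1, 2 and 3. The count in these genes was 0 without DMSO 1, without DMSO 4 or without both arrays numbered 1, where Scarb1 had an adjusted p of 0.229, and 1 without any other array. It was also 1 with array weights (adjusted p = 0.0544 for Scarb1) and when all rows entered the fit (0.0523).

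Mylip encodes an E3 ubiquitin ligase, also called IDOL, that marks lipoprotein receptors such as VLDLR and LRP8 for breakdown. Its level was 10.09, 9.96, 9.97 and 10.004 in DMSO and 9.74, 9.69 and 9.76 with the inhibitor. All inhibitor arrays lay below all DMSO arrays, and DMSO 1 was the highest. Mylip fell by 0.27 (SE 0.038, 95% interval -0.36 to -0.18, adjusted p = 0.00727 in limma).

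Of 11 measured genes of lipoprotein receptors and of the ligase's partners, 2 rose and 1 fell, with a median difference of -0.0021. Lrp8 rose from 5.59 to 5.99 (log2 0.39, SE 0.044, adjusted p = 0.00326 in limma). Vldlr did not pass, at a difference of -0.02. Dab2, an adaptor that takes receptors of this family into clathrin-coated pits, rose by 0.51 (SE 0.058). Usp2, a deubiquitinase that acts on MYLIP, fell by 0.56 (SE 0.074, adjusted p = 0.00604 in limma). The genes of the conjugating enzymes that work with the ligase did not pass, with differences of -0.10 for Ube2d1, -0.05 for Ube2d2a and -0.0044 for Ube2d3. These 3 and Vldlr were chosen after their values were seen.

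Npc1 and Npc2 act one after the other in the lysosome: the soluble protein NPC2 picks up cholesterol freed from lipoproteins and passes it to NPC1 in the lysosomal membrane. Npc1 read 9.53, 9.66, 9.62 and 9.64 in DMSO and 9.09, 9.15 and 9.24 with the inhibitor. The groups were separated, with the lowest DMSO array, DMSO 1, still above the highest inhibitor array. Npc1 fell by 0.45 (SE 0.046, 95% interval -0.56 to -0.34, adjusted p = 0.0022 in limma).

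Npc2 went the other way, from 10.04, 10.18, 10.20 and 10.08 in DMSO to 10.35, 10.34 and 10.30 with the inhibitor. Every inhibitor array lay above every DMSO array. The increase was 0.20 (SE 0.045, 95% interval 0.098 to 0.31, adjusted p = 0.0395 in limma). Its call ended without DMSO 1 (adjusted p = 0.063), DMSO 2 (0.0646), DMSO 4 (0.116), SCD inhibitor 1 (0.116), SCD inhibitor 2 (0.128) or SCD inhibitor 3 (0.0941), without both arrays numbered 1 (0.153) and when all rows entered the fit (0.0537). It held without DMSO 3 (adjusted p = 0.0425).

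Within arrays, Npc1 minus Npc2 averaged -0.51 ± 0.057 (SD, n = 4) in the DMSO arrays and -1.17 ± 0.10 (SD, n = 3) in the inhibitor arrays. The groups did not overlap, and Npc1 changed by -0.66 relative to Npc2. This follows from the separation of each gene in opposite directions and is given as a description with no test of its own.

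**Figure D3:**
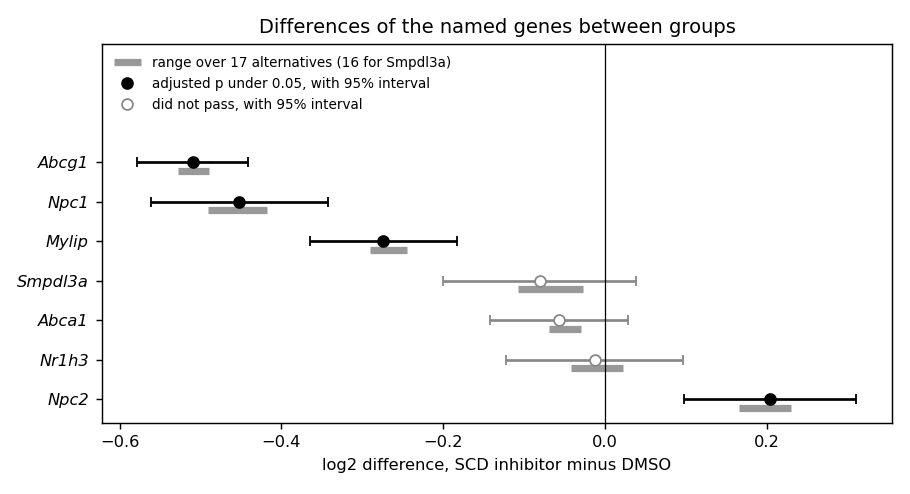
Difference in log2 level between SCD inhibitor (n = 3) and DMSO (n = 4) for each gene, as points with 95% intervals, filled where the adjusted p in limma is under 0.05. Grey bars span the values under the alternative settings. The intervals of Abcg1, Npc1 and Mylip lie below 0 and that of Npc2 above it, and Abcg1 has the narrowest interval.

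Around these lysosomal proteins, 24 genes of endolysosomal and membrane contact-site sterol transport were measured, of which 2 rose and 1 fell. Their median difference was -0.0038. Stard4 and Stard5, which encode soluble lipid-binding proteins of the START family, moved in opposite directions. Stard4 rose from 8.03 to 8.75 (log2 0.71, SE 0.039) and Stard5 fell from 8.92 to 8.36 (log2 -0.57, SE 0.055, adjusted p = 0.00175 in limma). Osbpl10, which encodes an oxysterol-binding protein relative, rose by 0.22 (SE 0.038, adjusted p = 0.0173 in limma). The call of Osbpl10 ended without DMSO 4 (adjusted p = 0.0547), SCD inhibitor 2 (0.0722) or SCD inhibitor 3 (0.0723), and without both arrays numbered 1 (0.0795). Lipa, the lysosomal acid lipase that frees cholesterol from its esters, and Lamp1 and Lamp2, abundant proteins of the lysosomal membrane, did not pass (differences of -0.17, 0.0054 and 0.014). These 3 were chosen after their values were seen.

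Smpdl3a encodes a phosphodiesterase related to acid sphingomyelinase. It read 3.77, 3.88, 3.77 and 3.77 in DMSO and 3.61, 3.77 and 3.77 with the inhibitor. The groups overlapped and the mean level stood at the 25.1 percentile of all genes, near the lower end of the scale, where a change can be compressed. The difference of -0.08 (SE 0.050, 95% interval -0.20 to 0.04) did not pass (adjusted p = 0.414 in limma). None of 7 measured relatives of single genes of the set passed in limma either. They include Smpd1, acid sphingomyelinase itself (difference 0.04, adjusted p = 0.304), and Marchf6, an E3 ligase of the endoplasmic reticulum (-0.12, adjusted p = 0.122), and 1 of them had an unadjusted p under 0.05.

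Among cholesterol esterases and esterifying enzymes, where Soat1 could not be read, 3 of 6 measured genes fell and 3 did not pass, with a median difference of -0.21. Ces1d and Ces1f, carboxylesterases that cleave neutral lipid esters, fell by 1.14 (SE 0.050) and 0.61 (SE 0.037). Nceh1, the neutral cholesterol ester hydrolase, fell by 0.34 (SE 0.080, adjusted p = 0.0485 in limma). The call of Nceh1 ended in every fit without 1 array, with adjusted p = 0.057, 0.0927, 0.137 and 0.0844 on leaving out DMSO 1, 2, 3 and 4 and 0.128, 0.0724 and 0.159 on leaving out SCD inhibitor 1, 2 and 3. It also ended without both arrays numbered 1 (0.146) and when all rows entered the fit (0.0663).

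A list drawn up around oxysterol metabolism gave 2 decreases and 1 increase among 11 measured genes, and a median difference of -0.07. Ephx1, the microsomal epoxide hydrolase, whose role in oxysterol metabolism is not established here, fell from 10.30 to 9.81 (log2 -0.49, SE 0.038). Cyp39a1, a hydroxylase of 24-hydroxycholesterol, fell by 0.45 (SE 0.073, adjusted p = 0.013 in limma), with adjusted p = 0.05002 without DMSO 3. Cyp7b1, which hydroxylates other side-chain oxysterols, rose by 0.30 from a low level of 3.85 (adjusted p = 0.0398 in limma). The call of Cyp7b1 ended in every fit without 1 array, with adjusted p = 0.109, 0.0567, 0.101 and 0.0631 on leaving out DMSO 1, 2, 3 and 4 and 0.0513, 0.136 and 0.137 on leaving out SCD inhibitor 1, 2 and 3. It also ended without both arrays numbered 1 (0.115) and when all rows entered the fit (0.0546). The count here was 1 without DMSO 3, and 1 after the 50% of genes with the lowest levels had been left out. Ch25h and Cyp27a1, which make 25- and 27-hydroxycholesterol, were at 3.60 and 4.48 in DMSO and did not pass (-0.0033 and -0.20). Both were chosen after their values were seen.

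Of 18 other measured LXR target genes, 6 fell and 1 rose, and the median difference was -0.05. The largest decreases were those of Apoc1, an apolipoprotein of the Apoe cluster, from 10.40 to 8.51 (log2 -1.89, SE 0.084, adjusted p = 6.74e-05 in limma), and of its neighbour Apoc2, from 7.09 to 6.03 (log2 -1.06, SE 0.083). Rnf145, an E3 ligase of the endoplasmic reticulum, fell by 0.91 (SE 0.050), and Mlxipl, which encodes the factor ChREBP, fell by 0.76 (SE 0.073). These 4 kept their calls in every fit without 1 array. The other 2 decreases were those of Tgm2, transglutaminase 2 (-0.46, SE 0.049), and Fasn, fatty acid synthase (-0.27, SE 0.052). The 1 increase was that of Apod, apolipoprotein D (0.40, SE 0.074). These 3 were chosen after their values were seen. The call of Fasn ended without DMSO 1 (adjusted p = 0.0832 in limma), DMSO 2 (0.0767), DMSO 3 (0.0559), DMSO 4 (0.0666) or SCD inhibitor 1 (0.0541), and without both arrays numbered 1 (0.138). The call of Apod ended without DMSO 2 (adjusted p = 0.0655 in limma), DMSO 4 (0.0667), SCD inhibitor 1 (0.0529), SCD inhibitor 2 (0.0806) or SCD inhibitor 3 (0.0708), and without both arrays numbered 1 (0.0594).

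Other well-known LXR targets in this list did not pass. Srebf1, which encodes the lipogenic factor SREBP1, differed by 0.15 (SE 0.042), Lpcat3, which puts polyunsaturated chains into phospholipids, by 0.07 (SE 0.020), and Apoe by -0.19 (SE 0.059). In each of these genes the groups did not overlap, which was so for 17.3% of all genes, and their adjusted p-values in limma were 0.085, 0.0796 and 0.117. All 3 were chosen after their values were seen. Of 9 measured genes of the SREBP2 axis, which is active when cholesterol in the endoplasmic reticulum is low, 3 rose and none fell by the test in limma, and at an unadjusted p under 0.05 another 2 lay above 0 and 2 below. The increases were Hmgcs1 (0.40, SE 0.065) and Lss (0.32, SE 0.033), enzymes of cholesterol synthesis, and Insig1 (0.24, SE 0.035), which holds SREBPs back. The call of Hmgcs1 ended without SCD inhibitor 2 (adjusted p = 0.0626 in limma) or SCD inhibitor 3 (0.0637).

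**Figure D4:**
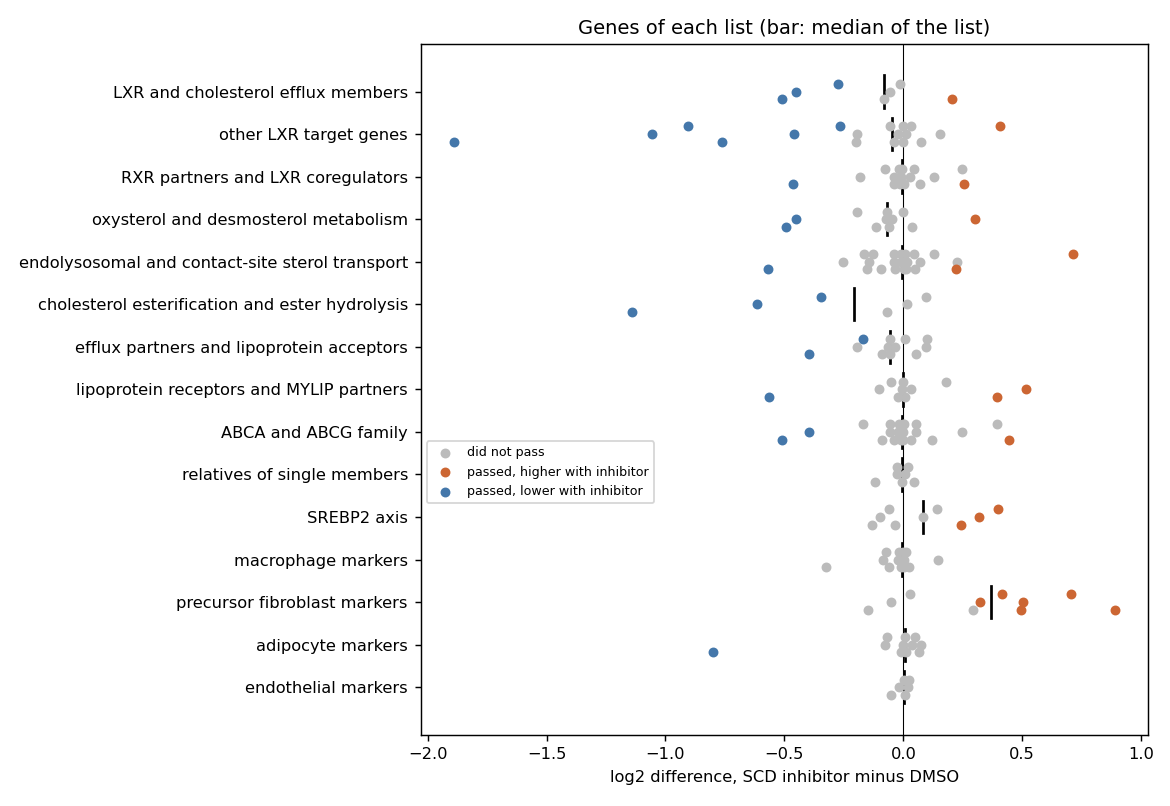
Difference in log2 level, SCD inhibitor minus DMSO, of each measured gene by list, with 1 point per gene. Colour gives the call in limma and the black bar the median of the list. The LXR and efflux genes run from -0.51 to 0.20, and the lowest point is Apoc1 at -1.89.

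The cultures were checked against markers of their own and of other cell types. Adipoq, which encodes adiponectin, had mean levels of 12.39 in DMSO and 12.44 with the inhibitor, although the labels name the material pre-adipocytes. Lep, which encodes leptin and is named here after its values were seen, was at 4.83 in both groups, below the median level of all genes of 5.59. Of 11 adipocyte markers 1 fell, the glucose transporter gene Slc2a4 (log2 -0.80). Their summed level on the linear scale was 42510 to 43410 in DMSO and 41450 to 43130 with the inhibitor. The brightest markers, up to a mean level of 12.71, make up most of this sum. RMA can compress changes at that end of the scale, so the sum cannot show that the share of fat cells was unchanged. Precursor fibroblast markers moved with the inhibitor: 6 of 10 measured rose and none fell, with a median difference of 0.37. The count was 5 with the replicate number as a block and 4 without both arrays numbered 1. Dlk1, named here after its values were seen, was 1 of the 6 (adjusted p = 0.0402 in limma) and was called under 8 of 17 alternatives. Pdgfra, a growth factor receptor of mesenchymal precursors, rose by 0.89 (SE 0.093, adjusted p = 0.00245 in limma) and Zfp521, a factor that holds back fat cell commitment, by 0.70 (SE 0.040). The summed linear level of the precursor markers was 5215 to 5648 in DMSO and 7125 to 7511 with the inhibitor, and its part in the differences of Abcg1, Npc1, Mylip and Npc2 was not tested. In bulk RNA, fewer cells of a type and less RNA per cell cannot be told apart.

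Macrophages, in which LXR genes are also well known, are not part of this line. None of 14 macrophage markers passed in limma (1 had an unadjusted p under 0.05), and their mean levels ran from 3.11 to 5.94, with Adgre1 at 3.11 and Ptprc at 4.09 in DMSO. The smallest p-values were those of Lyz2 (difference -0.33, adjusted p = 0.146 in limma) and Cd14 (0.15, adjusted p = 0.259). For Lyz2 every inhibitor array lay below every DMSO array, as for 9.02% of all genes. The summed linear level of the 14 markers was 271.1 to 286.5 in DMSO and 260.9 to 271.4 with the inhibitor. None of 6 endothelial markers passed in limma, and none had an unadjusted p under 0.05.

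The genes whose log2 values ran most like those of Abcg1 over the 7 arrays were Slc22a20, Des, Acy3, Smurf1 and Fxyd1, with Pearson r from 0.9944 to 0.9959. All 5 were lower with the inhibitor, Slc22a20, an organic anion transporter gene, with a difference of -2.64, Acy3, an aminoacylase, with -1.02 and Des, which encodes desmin, with -0.98. The genes most like Abca1 were Ttc24, Dpysl5, Adcy10, Chrna6 and Letm1 (r from 0.9908 to 0.9974), none of which passed in limma (adjusted p from 0.432 to 0.581). Apart from Letm1 they lay in the lower part of the scale, with DMSO means of 3.03 to 4.40. Abca1 itself had 1 value on 3 of 7 arrays and was highest on DMSO 2, so few arrays weigh on these r values. For Abcg1 the likeness follows the split into groups. All arrays share 1 normalization, and 18820 genes were searched over 7 arrays, so these are descriptions with no test.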

How the data were processed

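Each of 7 samples was measured on 1 Affymetrix whole-transcript array. The deposited values are log2 expression levels that the authors computed by RMA, per the submitters' processing notes. For its version, annotation release and filters the sources used here give nothing. That the scale is log2 follows from the values (2.23 to 13.2, array medians 4.88 to 4.94). Of 28996 rows, 21218 had 1 symbol in the array annotation, 1881 several and 5897 were not listed; rows with 1 symbol were used, updated through Entrez numbers to RefSeq (21185 matched, 0 changed). The row with the highest mean stood for a gene, which gave 18820 genes. Arrays of one group correlated at 0.99902 to 0.99948 and those of different groups at 0.99684 to 0.9975. The number of arrays limits the precision.

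A linear model with an intercept and an inhibitor effect was fitted to every gene with limma 3.58.1 (lmFit and eBayes) in R 4.3.3, with Benjamini-Hochberg adjustment over the 18820 genes. The script was tested on simulated data. Within-array differences of gene pairs are described without the exact permutation test that was planned for them, since the values of the single genes already fixed its outcome. Of 4 pairs planned, 2 were run; Nr1h2 has no row in the annotation, and another pair is not reported here. The genes, the 14 other lists and the settings were chosen with earlier results of these data known. Genes were named by a rule: all members, of each list up to 4 called genes with the largest change or else the 2 with the smallest p, and the 5 genes most like Abcg1 and Abca1. Genes named outside it are marked as such in the results, apart from Abcg5, Abcg8, Adipoq, Adgre1 and Ptprc, which are also outside it. Alternatives tried were a replicate block, a second quantile normalization, median centring, filters on dim genes, trend and robust variance, array weights, the mean of a gene's rows, all rows, and leaving out arrays.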

Additional observations from a re-analysis of the deposited data

Results flagged for a closer look

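Within the 4 DMSO arrays, 54 sets of values were looked at for 1 array that stood apart (its gap to the nearest array over the whole range above Dixon's 95% critical value), and 8 did. For normal values without ties, chance alone gives such a gap in about 1 in 20 sets. The values here hold ties, as in Smpdl3a, and some sets share values, so that rate need not hold. For Abca1 the array was DMSO 2 (10.54 against 10.42 to 10.44, ratio 0.879), and the same array stood apart in Abcg1 minus Abca1 (-1.38 against -1.21 to -1.19, ratio 0.888) and in Smpdl3a (3.88 against 3.77 on each of the others, ratio 1). DMSO 2 was low for the macrophage marker Cd14 (3.88 against 3.94 to 3.95, ratio 0.838) and for the endothelial marker Emcn (3.63 against 3.71 to 3.72, ratio 0.908). DMSO 4 was high for Tgm2 (7.05 against 6.89 to 6.90, ratio 0.969) and for Zfp521 (6.79 against 6.69 to 6.70, ratio 0.893), and DMSO 1 was high for Cdh5 (3.92 against 3.90, ratio 0.855). Without DMSO 2 the difference of Abca1 was -0.03, and that of Abcg1 relative to Abca1 was -0.50.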

How the results depend on the processing

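Abcg1 and Npc1 kept their direction and their call under all 17 alternatives, with log2 differences from -0.53 to -0.49 and from -0.49 to -0.42. Mylip did so under 16 of 17 (-0.29 to -0.24). It had an adjusted p of 0.053 in limma with the replicate number as a block. Npc2 was higher under all 17 alternatives (0.17 to 0.23) and was called under 8. Abca1 was not called under any of 17, Nr1h3 under any of 17 or Smpdl3a under any of the 16 that kept it, and the difference of Nr1h3 (-0.042 to 0.023 without 1 array) turned its sign under 3, to 0.00012 (arrays centred), 0.0065 (without both arrays numbered 1) and 0.023 (without DMSO 1). Of the 7 genes, 3 to 4 were called when 1 array was left out and 2 with the block, where Npc2 had an adjusted p of 0.169. Over all genes the count of 1505 became 949 to 1294 without 1 array (949 without SCD inhibitor 3 and 980 without DMSO 4), 896 with the block and 808 without both arrays numbered 1. It rose to 2128 with a further quantile normalization (1106 higher and 1022 lower), 2060 with the arrays centred (1117 and 943) and 1989 with the dimmest 50% dropped (952 and 1037), so that the balance of 682 higher to 823 lower turned round under both scalings. It also turned round without SCD inhibitor 1 (712 and 582) and without both arrays numbered 1 (434 and 374). Of the other list genes, 34 were called (17 higher and 17 lower), 24 to 31 without 1 array, 41 with the further quantile normalization (23 and 18) and 39 with the arrays centred (21 and 18). The shift of Abcg1 relative to Abca1 ran from -0.50 to -0.42 and that of Npc1 relative to Npc2 from -0.71 to -0.61 when 1 array was left out. The causes were not tested.

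The replicate numbers pair the groups only by number: deviations from the group means correlated at 0.174, 0.138 and 0.0796 for arrays numbered 1, 2 and 3, and 2 of 3 inhibitor arrays were closest to the DMSO array of their own number. With the block, the calls of Insig1 (adjusted p = 0.0959 in limma), Hmgcs1 (0.0919), Osbpl10 (0.117), Scarb1 (0.141), Nceh1 (0.149), Apod (0.0967) and Dlk1 (0.113) also ended. This left 1 of the 3 calls in the SREBP2 axis. The filters, variance settings and array weights do not enter the within-array pairs and were not run for them. RMA can compress changes at both ends of the scale; no called gene above a mean level of 11.88 changed by over 0.5.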

Other observations

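The deposited values hold many equal numbers between arrays. Smpdl3a had 1 value on 5 of 7 arrays and Abca1 1 value on 3 of 7. Over all 18820 genes, 54.6% had the same value on 3 or more arrays and 12.5% on 5 or more. Abcg1, Mylip, Npc1 and Npc2 had a different value on each array.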
